A study of Drosophila melanogaster with 4 samples.

Results

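The odorant-binding protein (Obp) genes were followed through ribosome-protected fragments from fly larvae. Members were the genes whose symbol starts with Obp and a digit in the Ensembl annotation of the Drosophila melanogaster genome (BDGP6.54), with the transcript rows of each gene added together. This gave 51 genes with 71 transcript rows, out of 17677 annotated genes with rows in the files, and all 51 annotated Obp genes had a row. The symbol rule leaves out lush, a pheromone carrier of the same family that has its own name.

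The libraries came from third-instar larvae of 2 genotypes, with 2 libraries each. Control larvae were Angel+/+ of the white Dahomey (wDah) background, and DmAngel KO larvae were Angel-/-. The knockout was made with guide RNAs and Cas9 expressed in the germline, and all stocks had been backcrossed into white Dahomey. The labels describe 2 knockout lines without saying which was used here, and the study names KO-1 for its ribosome profiling. In both genotypes a crude mitochondrial pellet of homogenised whole larvae was lysed and treated with RNase T1, and the RNA of the monosome fractions of a sucrose gradient was sequenced. DmAngel is the fly homologue of ANGEL2, a phosphatase that acts on the 3′ ends of mitochondrial transcripts, and the libraries were made to follow mitochondrial translation. The reads on nuclear transcripts described here are the share of these libraries that did not fall on mitochondrial DNA, so a level is that of protected fragments in this fraction and not of the RNA of the whole animal. Replicates were not clearly separate cultures, since the public description speaks of technical replicates and the study of independent experiments, and p-values then measure only the spread between these libraries.

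Odorant-binding proteins are small secreted proteins held together by disulfide bonds between conserved cysteines. In the olfactory and taste hairs they fill the fluid around the sensory neurons, where they bind hydrophobic ligands and carry or buffer them. Many members are made far from any sensory neuron, in fat body, glia, gut or the male accessory gland, and their ligands there are mostly unknown. As secreted proteins they are translated at the endoplasmic reticulum.

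Control replicates 1 and 2 held 1324943 and 457054 reads on nuclear transcripts, and DmAngel KO replicates 1 and 2 held 566679 and 518033. These were 31.9 and 25.5% of all reads in the control and 6.93 and 6.30% in DmAngel KO. Levels are given as reads per 1000000 reads on nuclear transcripts (RPM), and a count of 0 allowed up to 3 reads, or 2.26 to 6.56 RPM by library. The angel gene itself had 2, 0, 1 and 1 reads in control replicates 1 and 2 and DmAngel KO replicates 1 and 2, too few to check the genotype. All 6 markers of the larval fat body were read in the control. Markers of adult glands and yolk, meant to be near 0 in larvae, summed to 275 and 158 RPM in the control and 26.5 and 19.3 RPM in DmAngel KO, mostly on the yolk protein gene Yp3.

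Most of the family was read rarely or not at all. No read fell on 14 of the 51 genes, 19 had 1 to 3 reads over the 4 libraries, and 18 had more than 3, the number that a count of 0 allows. At least 1 read thus fell on 37 of the 51 genes. Over all 17846 genes with rows, unannotated rows counted singly, it fell on 13176, a similar share. Genes without a read were therefore not particular to the family. Reads fell on 21 and 20 genes in the control libraries and on 26 and 25 in DmAngel KO. At least 10 reads in all were found for 13 genes, and reads in every library for 14. Among the genes without a read were Obp83b, a carrier of the adult antenna, Obp69a, another antennal carrier, and Obp57e, a taste carrier with a part in host plant choice. A set of 7 members known from the male accessory gland and seminal fluid, which are Obp8a, Obp22a, Obp51a, Obp56e, Obp56f, Obp56g and Obp56i, had 5 reads together. No member of that set passed 3 reads. The set was put together from background knowledge after the values had been seen.

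The genes lie mostly in groups along the chromosomes, and reads were uneven between these groups. Taking neighbours within 100 kb as a group, 36 of the 51 genes stood in 8 groups. The group of Obp99a, Obp99b, Obp99c and Obp99d on chromosome 3R held 21124 reads, which was 93.3% of all reads of the family. The group of 9 genes from Obp56a to Obp56i on 2R held 479, and Obp83cd, Obp83ef and Obp83g on 3R held 417. On chromosome X none of 6 genes had more than 3 reads, against 9 of 29 on 2R and 7 of 12 on 3R.

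**Figure D1:**
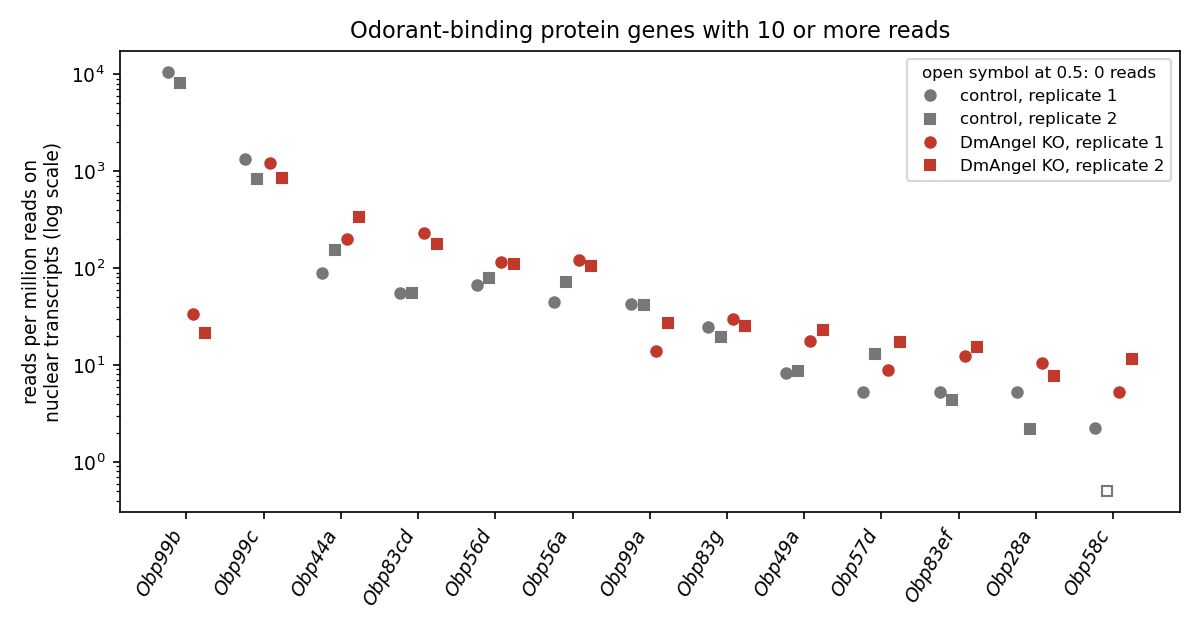
RPM on nuclear transcripts (log scale) of the 13 Obp genes with 10 or more reads, 1 point a library, with control in grey and DmAngel KO in red and open symbols for 0 reads. Obp99b is the member with most reads in both control libraries, at 10589 and 8098 RPM, and lies at 33.5 and 21.2 RPM in DmAngel KO, while the Obp99c libraries of both genotypes overlap.

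The comparison of DmAngel KO with control asked which members differed between the genotypes beyond the spread between libraries. Obp99b, a carrier known from adult head fat body, fell to a level 341-fold lower in DmAngel KO, and this call held under all 13 alternatives. Obp99a was also called lower and Obp83cd higher, and both of these calls were lost under several alternatives. Of the 51 genes, 8 had enough reads to be tested, and the edgeR quasi-likelihood test called 1 of them higher and 2 lower. Over all 3003 genes tested, 335 or 11.2% were called, with 125 or 4.16% higher and 210 or 6.99% lower. The median log2 fold change of the 8 Obp genes was -0.23 and that of all genes tested 0.01, with 3 Obp genes above 0 and 5 below. A difference in this bulk material can come from the number of cells of a type or from the RNA per cell. It can also come from the ribosomes per RNA or from the part of them that reaches this fraction. These cannot be told apart.

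The choice of scale moved the values of all 8 members. The storage proteins Lsp1alpha, Lsp1beta, Lsp1gamma and Lsp2 took 30.9 and 16.2% of the nuclear reads in the control and 3.70 and 2.33% in DmAngel KO, so that other genes take a larger share of the reads there. TMM factors, which set the bulk of genes equal, were 0.78 and 0.80 in the control and 1.34 and 1.20 in DmAngel KO. Unless another scale is named, log2 fold changes given here are after TMM and RPM values are before it. Without these factors the median over all genes was 0.70 and the calls turned to 735 higher and 117 lower. With the library size taken from all reads, mitochondrial ones included, the median was -1.50 and the calls were 31 higher and 2672 lower. With the Lsp genes left out of the library size, which was tried only once the values were known, the median was 0.30 and the calls were 208 higher and 123 lower.

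**Figure D2:**
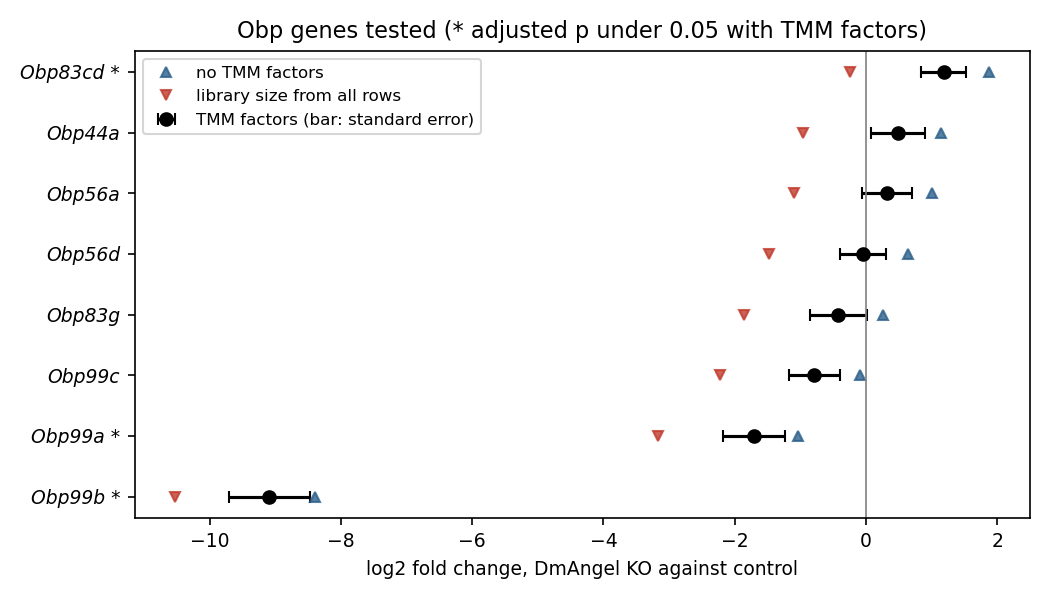
Log2 fold change of DmAngel KO against control for the 8 Obp genes tested. Black points with approximate standard error bars are after TMM, blue triangles without TMM factors and red triangles with the library size from all reads. Obp99b lies between -10.52 and -8.40 under all 3 scalings, while Obp44a, Obp56a and Obp83cd lie above 0 under 2 of them and below 0 with all reads as library size.

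Obp99b lies on the minus strand of 3R at 29716254 to 29716896 (BDGP6.54). It is also known as turn on sex-specificity, and in adults its expression in the fat body of the head follows the sex determination genes. It had 14030 and 3701 reads in control replicates 1 and 2, and 19 and 11 reads in DmAngel KO replicates 1 and 2. In RPM these were 10589 and 8098 against 33.5 and 21.2, so that the lowest control library lay far above the highest DmAngel KO library. The Wilson 95% intervals, which cover counting error only, were 10416 to 10765 and 7842 to 8361 RPM in the control and 21.5 to 52.4 and 11.9 to 38.0 RPM in DmAngel KO. The mean was 9343 ± 1762 RPM in the control and 27.4 ± 8.69 RPM in DmAngel KO (SD, n = 2 libraries each). The log2 fold change was -9.09 (SE 0.62, edgeR adjusted p = 5.86e-06). Among the 3003 genes tested this was the fifth lowest log2 fold change, after Lsp2 at -9.82, Fbp1 at -9.48, Sgs3 at -9.39 and Sgs7 at -9.18. In DmAngel KO replicates 1 and 2 Lsp2 had 3 and 0 reads, Fbp1 had 4 and 3, and Sgs3 and Sgs7 had none. At such counts the order of these falls is not resolved. Obp99b was called lower under all 13 alternatives, between -10.52 and -8.40, with adjusted p-values up to 5.02e-05 (edgeR, transcripts tested singly).

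Per kilobase of coding sequence, Obp99b was among the most read genes of the control and not of DmAngel KO. Its level was 20902 ± 3941 RPM per kilobase in the control and 61.3 ± 19.4 in DmAngel KO (SD, n = 2 libraries each). It ranked 5 and 4 among 10746 and 8700 genes with reads in the control libraries, and 988 and 1283 among 10413 and 10443 in DmAngel KO. The 2 transcript rows of Obp99b shared its reads in close to equal parts, the first holding 50.1 and 49.4% in the control and 52.6 and 63.6% in DmAngel KO, where few reads were left. Both rows have a coding length of 447 bases, and how reads that fit both were assigned is not given. The split therefore does not tell the isoforms apart.

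The fall of Obp99b stood beside lower levels of the 6 listed larval fat body markers, which are Lsp and Fbp genes only. Outside this list, the lipid transport genes apolpp and Apoltp were not called, at 0.15 and 0.04 (edgeR adjusted p = 0.883 and 0.962). Other fat body genes were not listed. All 6 markers of the list were tested and all 6 were called lower (6.99% of all genes tested were). Lsp2, Fbp1 and Fbp2 reached the filter on low counts, 18.4 RPM in at least 2 libraries, only in the control. They could thus be tested only through the genotype in which they were high, while Lsp1alpha, Lsp1beta and Lsp1gamma reached it in all 4 libraries. The summed level of the 6 markers was 312164 and 165484 RPM in the control and 36971.5 and 23338 RPM in DmAngel KO, which does not overlap. Fbp1, the receptor that takes storage proteins back into the fat body, had 4105 and 1277 reads in the control and 4 and 3 in DmAngel KO, with a log2 fold change of -9.48. Fbp2, a fat body protein related to alcohol dehydrogenase, was at -7.27. The larval serum proteins, storage proteins that the fat body secretes into the hemolymph, were at -6.65 for Lsp1alpha, -3.20 for Lsp1beta, -3.40 for Lsp1gamma and -9.82 for Lsp2. The fall thus differed in size between markers, with mean RPM levels 5.64-fold lower for Lsp1beta and 624-fold lower for Lsp2.

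The salivary gland glue genes gave a mixed picture. Of 11 listed genes 6 were tested, and Sgs3, Sgs5 and Sgs7, glue proteins of late third-instar larvae, were called lower (6.99% of all genes tested were). Sgs3, Sgs5 and Sgs7 reached the 18.4 RPM of the filter only in the control libraries, so they could be tested only through the control. Sgs3 had 74 and 65 reads in the control and 0 in both DmAngel KO libraries, at least 35.8-fold lower with 3 reads over the DmAngel KO group as the floor. The genes ng1, ng2 and ng3, which are active earlier in the gland, were not called. The summed level of the list was 284 and 615 RPM in the control and 244 and 332 RPM in DmAngel KO, which overlaps. Of 8 secretory pathway genes all were tested and 5 were called lower (Calr, Gp93, Pdi, Sec61alpha and SsRbeta), against 6.99% of all genes tested. The list summed to 16752 and 11578.5 RPM in the control and 8626 and 7266 RPM in DmAngel KO. The yolk protein genes Yp2 and Yp3, which the fat body of adult females expresses, were the tested ones of the adult list. Both were called lower, Yp3 at -3.76 (6.99% of all genes tested were). Yp2 reached the 18.4 RPM of the filter only in the control libraries. Of 6 midgut genes, all tested, the digestive enzymes Jon25Bi and Amy-p were called lower, at -3.34 and -3.47 (6.99% of all genes tested were). Calls over all genes moved with the scale, and the calls of these marker lists were not counted with the other library sizes. Of 5 hemocyte genes 4 were tested and edgeR called 0 of them, with 0 at an unadjusted p under 0.05 and 0 by DESeq2. The part of cell type makeup, larval stage or the secretory pathway in the level of Obp99b was not tested.

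**Figure D3:**
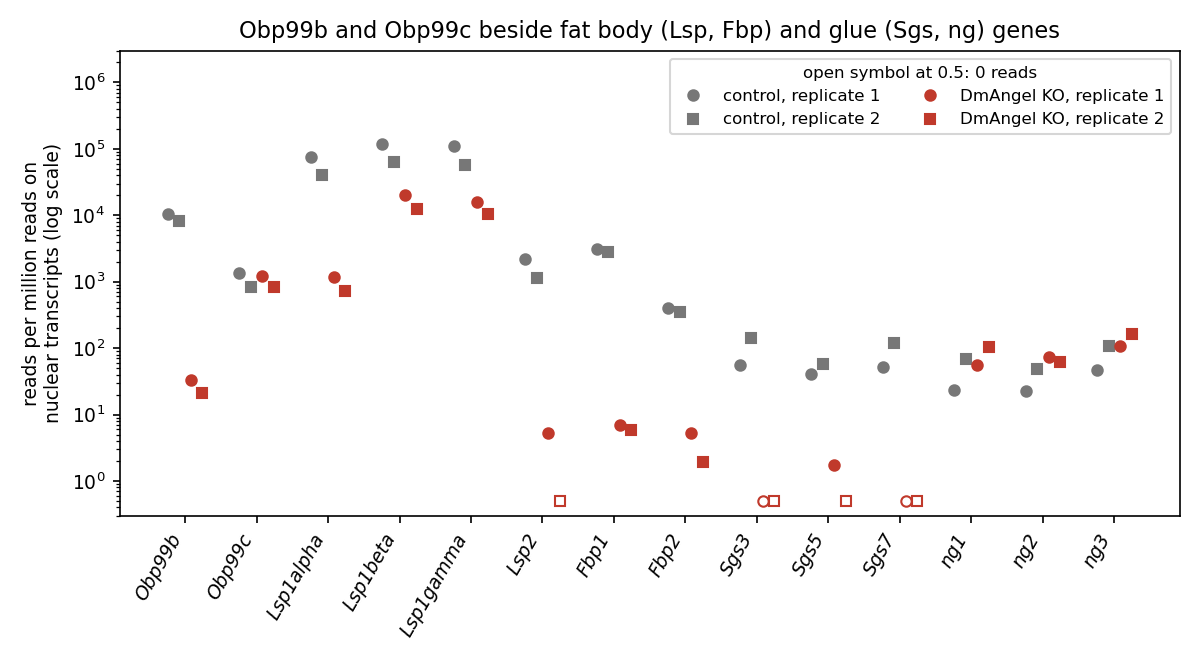
RPM on nuclear transcripts (log scale) of Obp99b and Obp99c beside 6 fat body markers and 6 glue genes, 1 point a library, with control in grey, DmAngel KO in red and open symbols for 0 reads. Obp99b, the fat body markers and Sgs3, Sgs5 and Sgs7 are lower in both DmAngel KO libraries than in both control libraries, while Obp99c and ng1 overlap between genotypes.

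Obp99c, read from the minus strand at 29685736 to 29689311 of the same group, did not pass the test. It had 1768 and 380 reads in the control and 682 and 435 in DmAngel KO. Its levels of 1334 and 831 RPM in the control and 1204 and 840 RPM in DmAngel KO overlap. The means were 1083 ± 356 and 1022 ± 257 RPM (SD, n = 2 libraries each). Its log2 fold change was -0.78 (SE 0.38, edgeR adjusted p = 0.207). It was called lower under 3 of 13 alternatives. These were the replicate number as a block in the fit, at -0.75 (edgeR adjusted p = 0.0434), and all reads as library size, at -2.23 (edgeR adjusted p = 0.00278). The remaining alternative left out control replicate 2 and gave -1.20. Per kilobase of coding sequence it stayed among the most read genes in all 4 libraries, with ranks of 29 and 41 in the control and 34 and 38 in DmAngel KO. One of its transcript rows has a shorter coding sequence of 183 bases and held 25.2 and 32.6% of its reads in the control and 27.4 and 39.8% in DmAngel KO.

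Obp99a, read from the plus strand at 29671657 to 29672334, was much less abundant than its neighbours. It had 56 and 19 reads in the control and 8 and 14 in DmAngel KO, or 42.3 and 41.6 RPM against 14.1 and 27.0 RPM. The genotypes did not overlap, with means of 41.9 ± 0.492 and 20.6 ± 9.13 RPM (SD, n = 2 libraries each). Its log2 fold change was -1.70 (SE 0.48, edgeR adjusted p = 0.0386). The call was lost under 5 of 13 alternatives. Without DmAngel KO replicate 1 it was -1.37 with an edgeR adjusted p of 0.220. It reached the 18.4 RPM of the filter on low counts in both control libraries and in 1 DmAngel KO library, while the other 7 members tested reached it in all 4. Without TMM factors it was -1.03 with an adjusted p of 0.110 from edgeR, and the adjusted p was 0.122 in DESeq2, 0.0782 in edgeR without the Lsp genes in the library size and 0.0594 in edgeR with transcripts tested singly. Obp99d, the fourth gene of the group, had a single read, in DmAngel KO replicate 2.

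Few of the other genes around the Obp99 group could be compared. Between 10 kb before Obp99a and 10 kb after Obp99b, 22 genes were annotated, of which 18 were not Obp genes and 4 of these had no read. Only CG7582 and Kul had enough reads for the test. CG7582 had 72 and 13 reads in the control and 8 and 7 in DmAngel KO, with a log2 fold change of -2.32 (SE 0.50, edgeR adjusted p = 0.0109). CG7582 reached the 18.4 RPM of the filter on low counts only in the control libraries, so it could be tested only through the control. It lies 34.0 kb from Obp99b, with Obp99c between them. Kul, a metalloprotease of the ADAM family, had 17 and 9 reads in the control and 7 and 10 in DmAngel KO, with a log2 fold change of -0.63 that did not pass the test (edgeR adjusted p = 0.450). The untested neighbours had at most 9 reads in any library, so a difference in them was not detectable at this depth.

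**Figure D4:**
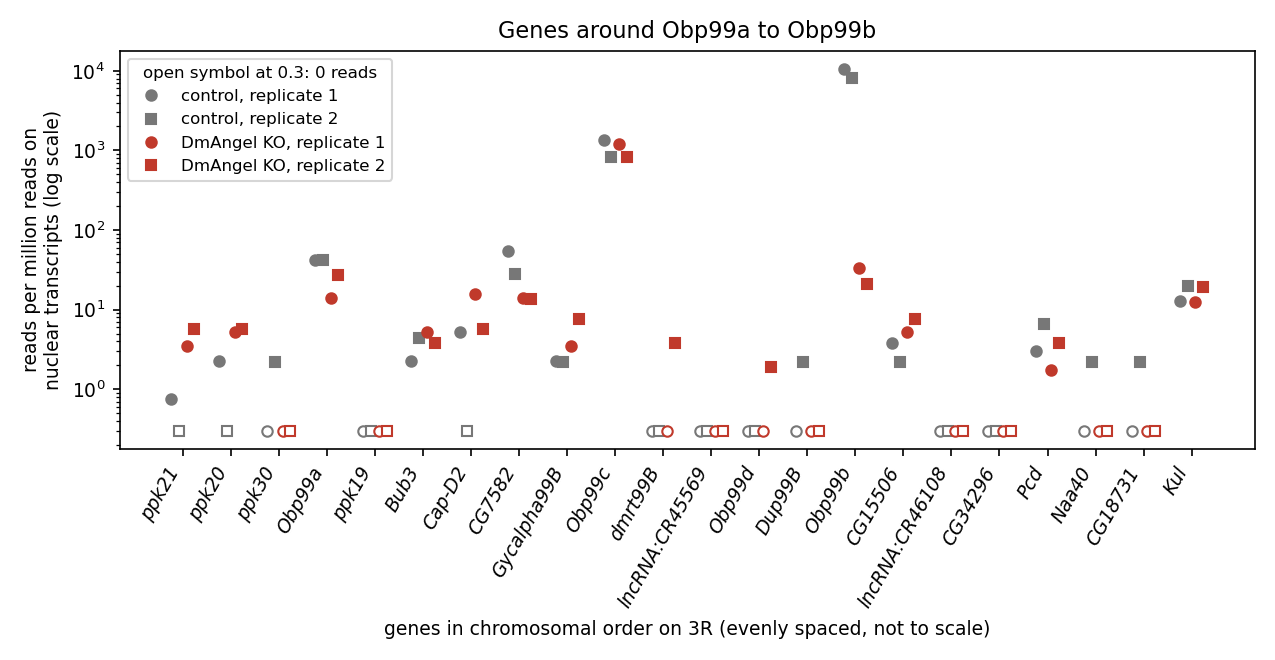
RPM on nuclear transcripts (log scale) of the 22 genes from 10 kb before Obp99a to 10 kb after Obp99b on 3R, in chromosomal order and evenly spaced, 1 point a library, with control in grey, DmAngel KO in red and open symbols for 0 reads. Obp99b and Obp99c stand above all other genes of the stretch in the control, and only Obp99c does in both DmAngel KO libraries.

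Obp83cd, on the plus strand of 3R at 6108134 to 6109733, was the only member called higher. It is a long member that carries a pair of odorant-binding domains. It had 74 and 25 reads in the control and 130 and 92 in DmAngel KO, or 55.9 and 54.7 RPM against 229 and 178 RPM. The genotypes did not overlap, and the means of 55.3 ± 0.816 and 204 ± 36.6 RPM (SD, n = 2 libraries each) were 3.68-fold apart. After TMM the log2 fold change was 1.19 (SE 0.34, edgeR adjusted p = 0.0443). The call was lost when any of the 4 libraries was left out (edgeR adjusted p = 0.0746 to 0.318), in DESeq2 (adjusted p = 0.129) and without the filter on low counts (edgeR adjusted p = 0.139). With all reads as library size its log2 fold change was -0.24.

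Its neighbours Obp83ef and Obp83g gave no call. Obp83ef, which also carries a pair of domains, had 7 and 2 reads in the control and 7 and 8 in DmAngel KO and was not tested. Obp83g had 33 and 9 reads in the control and 17 and 13 in DmAngel KO, and its levels of 24.9 and 19.7 RPM lay just below the 30.0 and 25.1 RPM of DmAngel KO. Its log2 fold change was -0.42 (SE 0.44, edgeR adjusted p = 0.582) and lay at 0.27 without TMM factors. Obp83cd and Obp83ef overlap on opposite strands, and only alignments to the sense strand were counted.

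Obp44a, on the minus strand of 2R at 8134170 to 8135315, is a carrier known from glia of the nervous system. It had 117 and 71 reads in the control and 112 and 173 in DmAngel KO, or 88.3 and 155 RPM against 198 and 334 RPM. Both DmAngel KO libraries lay above both control libraries in RPM, yet the log2 fold change after TMM was 0.49 (SE 0.41, edgeR adjusted p = 0.473) and did not pass the test. Without TMM factors it was called higher, at 1.15 with an edgeR adjusted p of 0.0467, and without DmAngel KO replicate 2 it was -0.12. The list of 9 glial markers summed to 152 and 151 RPM in the control and 319 and 394 RPM in DmAngel KO, and none of the 5 tested was called in either direction by edgeR or DESeq2, with 2 higher and 0 lower at an unadjusted p under 0.05. The part of glial cells in the level of Obp44a was not tested.

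Obp56a and Obp56d were the members of the Obp56 group with enough reads, and no difference was shown for either of them. Obp56a had 59 and 33 reads in the control and 69 and 55 in DmAngel KO, with a log2 fold change of 0.32 (SE 0.38, edgeR adjusted p = 0.632) that turned to -0.12 without control replicate 1. Obp56d, which is also read in adult olfactory and taste organs, had 88 and 36 reads in the control and 65 and 57 in DmAngel KO, with a log2 fold change of -0.04 (SE 0.35, edgeR adjusted p = 0.958). Its sign followed the scaling and was 0.64 without TMM factors. Of the 7 other genes of the group, Obp56h, a carrier tied to male mating behaviour, had most reads, with none in the control and 2 and 6 in DmAngel KO.

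Compared per kilobase of coding sequence, the order of the 8 members changed below its first places. In the control Obp99b was followed by Obp99c at 2391 ± 785 RPM per kilobase, Obp44a at 284 ± 110.5 and Obp56d at 185 ± 22.2. Then came Obp56a at 140 ± 46.9, Obp99a at 98.4 ± 1.15, Obp83cd at 76.1 ± 1.12 and Obp83g at 50.9 ± 8.42 (SD, n = 2 libraries each). Among neighbours in this order only the libraries of Obp56d and Obp56a overlap. In DmAngel KO Obp99c led at 2255 ± 568, before Obp44a at 620 ± 225. Obp56d at 286 ± 8.41, Obp83cd at 280 ± 50.5 and Obp56a at 273 ± 26.4 overlap each other there. Obp83g at 62.9 ± 7.92, Obp99b at 61.3 ± 19.4 and Obp99a at 48.3 ± 21.4 came last and overlap as well.

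Of the members not tested, 5 had 10 or more reads but too few for the test. Obp49a, a taste carrier that binds bitter compounds, had most, with 11 and 4 reads in the control and 10 and 12 in DmAngel KO. Obp57d, which acts with Obp57e in taste on the legs, had 7 and 6 reads against 5 and 9. It overlaps the gene Cpr57A on the same strand, and how reads that fit both were assigned is not given. Obp28a, one of the abundant carriers of the adult antenna, had 7 and 1 reads against 6 and 4. Obp58c had 3 and 0 reads against 3 and 6. A difference between genotypes was not detectable in these members at this depth. The 5 genes Obp50d, Obp50e, Obp56h, Obp73a and Obp83a, had 4 to 9 reads in all.

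The family as a whole took 12280 and 9404 RPM in the control libraries and 2035 and 1751 RPM in DmAngel KO. The means of 10842 ± 2034 and 1893 ± 201 RPM (SD, n = 2 libraries each) were 5.73-fold apart, and the genotypes did not overlap. Obp99b made up 86.2 and 86.1% of the family total in the control and 1.65 and 1.21% in DmAngel KO, where Obp99c held 59.2 and 48.0%. Without Obp99b the total was 1691 and 1306 RPM in the control and 2001 and 1730 RPM in DmAngel KO, with means of 1499 ± 272 and 1865 ± 192 RPM. Without Obp99b and Obp99c it was 357 and 475 RPM against 798 and 890 RPM, with means 2.03-fold apart and DmAngel KO higher. These sums depend on the scale. With TMM factors in the library sizes, an alternative added with the values known, the total without Obp99b was 2160 and 1642 per 1000000 reads in the control and 1496 and 1441 in DmAngel KO, so that it was higher in the control. The total without Obp99b and Obp99c was then 456 and 597 against 596 and 742, which overlap, with means 1.27-fold apart, and with all reads as library size its control mean was 2.11-fold higher. The full total was higher in the control under all of these scales, 9.23-fold with TMM factors.

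**Figure D5:**
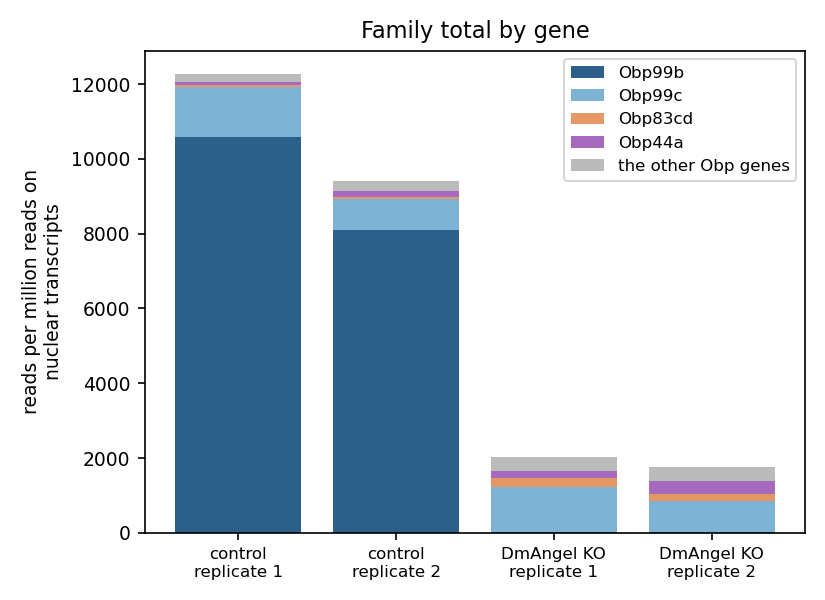
Summed RPM on nuclear transcripts of the 51 Obp genes in each of the 4 libraries, stacked by gene. The bars reach 12280 and 9404 RPM in the control and 2035 and 1751 RPM in DmAngel KO, and the section of Obp99b fills 86.2 and 86.1% of the control bars.

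Receptors and other chemosensory carriers were compared from a list of 221 genes. No read fell on 63 of them, 60 had more than 3 reads and 10 were tested. Of all 17846 genes with rows, 13176 had at least 1 read and 3003 were tested. The share without a read was thus close to that of all genes. Of the 10, edgeR called 0 higher, with 0 at an unadjusted p under 0.05 and 0 by DESeq2, and called 2 lower (6.99% of all genes tested). Both belong to the Npc2 family of secreted sterol carriers. Npc2g had 562 and 169 reads in the control and 166 and 104 in DmAngel KO, with a log2 fold change of -1.38 (edgeR adjusted p = 0.0221). Npc2d had 329 and 76 reads against 86 and 63, with a log2 fold change of -1.30 (edgeR adjusted p = 0.0345). No gene of the list was called lower without TMM factors, without the Lsp genes in the library size, with transcripts tested singly or when either DmAngel KO library was left out, while 4 were without control replicate 2. Of 61 odorant receptor genes none was tested and 10 had more than 3 reads. Of 60 gustatory receptor genes 1 was tested, and of 64 ionotropic receptor genes 2 were. The markers fixed for olfactory and gustatory organs were Orco, lush and the family members Obp83a, Obp83b, Obp69a and Obp28a. Their sum of 4.38 to 15.9 RPM therefore restates counts of the family in part. Orco, the co-receptor of all odorant receptors, Obp83b and Obp69a were at 0 in all 4 libraries.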

How the data were processed

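The deposited files held raw counts of reads per transcript, which the authors obtained by aligning ribosome-profiling reads to the sense strand of fly transcripts with Bowtie2, the labels naming bedtools and build BDGP6 as well. How a read shared by isoforms or similar genes was assigned is not given in the sources used here. Each file had 34917 rows, of which 34882 were nuclear transcripts and 35 mitochondrial features, and 34713 nuclear rows were found in Ensembl BDGP6.54. The other 169 were each kept as a row of their own, in the library size and in the fit.

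Counts were summed per gene and tested in edgeR 4.0.16 (R 4.3.3) with the quasi-likelihood test, filterByExpr (18.4 RPM in at least 2 libraries), TMM and Benjamini-Hochberg adjustment over 3003 genes, with a threshold of 0.05, two-sided. Every member tested is named with its values, and members with 10 or more reads with their counts. DESeq2 1.42.0, other library sizes, other filters, single transcripts and left-out libraries were alternatives. An exact permutation of 2 against 2 libraries cannot go below p = 0.333, so none is given. Intervals and floors cover counting error only. Standard errors (SE) are not given by the quasi-likelihood test. They were derived as the absolute log2 fold change over the square root of the F statistic and are approximate. The fit was also run on simulated counts, drawn with the common dispersion and without the difference in scale seen here. Such counts cannot check how the calls depend on the scale. Members and lists were chosen with earlier results of these data known.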

Additional observations from a re-analysis of the deposited data

How the results depend on the processing

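Obp99b was called lower under every alternative run. The count of Obp genes called higher was 2 without TMM factors. It was 0 with all reads as library size, without the filter on low counts, in DESeq2 and with any library left out (0 to 0). The count called lower was 1 without TMM factors, 7 with all reads as library size, 1 without the Lsp genes in the library size, 1 with transcripts tested singly, 1 in DESeq2 and 1 to 3 with a library left out. Over all genes, higher and lower calls were 735 and 117 without TMM factors, 31 and 2672 with all reads, 208 and 123 without the Lsp genes, and 70 higher in DESeq2, against 92 to 175 higher and 119 to 436 lower with a library left out. The chemosensory list gave 1 higher and 1 lower gene without the filter, 1 lower with the stricter filter, 0 lower without TMM factors, without the Lsp genes or with single transcripts, 13 lower with all reads, and 0 to 1 higher and 0 to 4 lower with a library left out.

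Log2 fold changes that turned sign were those of Obp44a (-0.95), Obp56a (-1.09) and Obp83cd (-0.24) with all reads, Obp44a (-0.12 to 0.80) and Obp56a (-0.12 to 0.55) with a library left out, and Obp83g (0.27) without TMM factors. Obp56d turned to 0.64 without TMM factors, 0.28 without the Lsp genes, 0.15 with the stricter filter and 0.13 for a single transcript. Relative to the median of all genes, these scalings gave 1.17 to 1.26 for Obp83cd and -1.73 to -1.66 for Obp99a. The control mean of the family was 3156 RPM with all reads, 14495 RPM without the Lsp genes, 13752 RPM with TMM factors in the library sizes, 1499 RPM without Obp99b and 9404 to 12280 RPM with a library left out, and the DmAngel KO mean was 126 RPM with all reads, 1490 RPM with TMM factors and 1751 to 2035 RPM with a library left out. Detected members numbered 37 at 1 read or more and 16 to 17 with a library left out.

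Libraries of equal number share only that number in the labels. The study states that control and knockout samples were prepared in parallel and describes independent profiling experiments. It does not tie these numbers to them, so a pairing is possible but not known. The differences between replicates correlated at 0.19 over genes between the genotypes. With the replicate number as a block, 251 genes were called higher and 377 lower, with 1 Obp gene higher and 3 lower, Obp99c among them at -0.75 (edgeR adjusted p = 0.0434).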
